A study of Mus musculus with 4 samples.

Results

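The genes described here are 10 genes for replacement histone variants and histone chaperones. They are the H2A variants H2afz and H2afv (both encode H2A.Z), H2afx (H2A.X) and H2afy (macroH2A1), the H3.3 genes H3f3a and H3f3b, the linker histones H1f0 and H1fx, and the H3-H4 chaperones Hira and Asf1a. They were taken by symbol from the RefSeq table, where all 10 were found, on 13 transcript lines of 24538, among 19797 symbols. All 10 passed the filter of a mean FPKM (fragments scaled by transcript length and library total) of at least 1 and belong to the 12050 genes tested.

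RNA came from MC1-ZE7, a mouse embryonic stem (ES) cell line of strain MC1 (129S6/SvEvTac) in which the fluorescent protein Emerald reports Zscan4, a gene cluster active in 2-cell embryos and, in ES culture, in a small fraction of cells at any time. Every library was made from this one reporter line, grown without feeder cells in medium with serum and leukemia inhibitory factor. Cells were sorted by fluorescence into an Emerald-positive high fraction (Em+, 2 libraries) and an Emerald-negative fraction (Em-, 2 libraries), and rRNA-depleted total RNA was sequenced. Nothing in the labels ties the 2 libraries of a fraction to separate cultures or sorts, so a p-value covers only how far these libraries differ, and that spread can be technical.

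Canonical histone genes are transcribed in S phase from clustered genes without introns, and their mRNAs end in a stem-loop in place of a poly(A) tail. Replacement variants are also made outside S phase, mostly from single genes with introns and polyadenylated mRNAs, and they can enter chromatin without DNA replication. H3.3 is carried to active genes by the HIRA complex, to which ASF1A hands H3-H4 dimers, and to telomeres and repeats by ATRX and DAXX. H2A.Z sits beside the start sites of genes, H2A.X is phosphorylated around DNA breaks, and macroH2A1 is a large variant associated with silent chromatin. Because rRNA was depleted and poly(A) RNA was not selected, both kinds of histone mRNA are in these libraries.

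The RefSeq totals were between 16468218 and 18953217 counts per library. Em+ replicate 2 stood apart: 43.4% of its reads were counted in RefSeq genes, against 49.0 to 51.1% in the other libraries, and Rn45s, a ribosomal RNA precursor model, took 7.95% of its counts against 3.93 to 4.33%. The 6 tested markers of 2-cell-like cells summed to 266 and 279 TMM-scaled CPM (a count as a share of the library, after trimmed-mean scaling) in Em+ and to 1.92 and 2.69 in Em-, which checks the titles, and all 6 rose (Zscan4d by 6.14 and Usp17lc by 7.79 on the log2 scale). ES markers were high in both fractions, with 8 of 8 tested and a summed level of 5222 to 5918 CPM. The pluripotency factor Nanog was the 1 called by edgeR, higher in Em+ (0.48, adjusted p = 0.0192), a call lost without Em- replicate 1 or 2 (adjusted p = 0.211 and 0.0714). DESeq2 also called Sox2, lower in Em+ (adjusted p = 0.0325). Of the markers of primitive endoderm, fibroblasts and trophoblast, 3, 2 and 3 of 8 each passed the filter, with sums of 478 to 528, 28.7 to 40.4 and 51.8 to 53.7 CPM. Of their members, Gata6, Sox17, Col1a1 and Cdx2 were below the filter. The primitive endoderm factor Gata4 passed it with 7.91 and 8.21 CPM in Em+ and 8.85 and 8.17 in Em-. The other primitive endoderm markers that passed were Lama1 (193 to 227 CPM over the 4 libraries) and Sparc (259 to 294 CPM). The fibroblast markers were higher in Em+ by estimate: in the fit with no filter 4 of 4 were above 0 (median 0.93), although Pdgfrb was below 0 on the FPKM scales and without Em+ replicate 1. Below the filter, the collagen gene Col1a1 had 45 and 47 counts in Em+ and 18 and 28 in Em-, and Col1a2 had 18 and 21 against 12 and 8. Above it, the surface glycoprotein gene Thy1 rose in Em+, with 20.5 and 19.5 CPM against 10.5 and 11.2 in Em- (log2 fold change 0.89, SE 0.11, adjusted p = 0.00386). The part of such cells in the results was not tested. In sorted populations, fewer expressing cells and less RNA per cell cannot be told apart.

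H3.3 and H2A.Z are each encoded by a pair of genes, and the sequences set what the counts can resolve. H3f3a and H3f3b encode the same H3.3 protein from coding regions of 408 bases each that differ at 95 bases (76.7% identity), 81 of them at the third base of a codon. Their longest shared run is 23 bases, so a longer read from the coding region can be assigned to one of them. The first 90 coding bases of each are shown, from GENCODE models on build mm10 with the 20 differing bases in capitals, since they show how 2 mRNAs for 1 protein are told apart.
H3f3a: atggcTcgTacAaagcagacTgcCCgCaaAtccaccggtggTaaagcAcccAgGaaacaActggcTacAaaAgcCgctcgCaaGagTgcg
H3f3b: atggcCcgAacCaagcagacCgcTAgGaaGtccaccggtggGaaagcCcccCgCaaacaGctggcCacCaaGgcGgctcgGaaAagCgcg
H2afz and H2afv, for the H2A.Z proteins, differ at 80 of 384 coding bases (79.2% identity), with a longest shared run of 14 bases.

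The regions before their starts also differ. The 250 bases before the RefSeq start (GRCm38.p6) were read for 9 of the 10 genes, and H2afx had no match. Motifs were searched on both strands: the TATA box (TATAAA), the CCAAT box (the letters of its name), the octamer (ATGCAAAT) and the GC box (GGGCGG). Across all 32851 RefSeq promoters these were present in 12.4%, 33.9%, 1.60% and 32.7%. Of the 9 promoters, 1 held the TATA box, 5 the CCAAT box, 1 the octamer and 7 the GC box. Their GC content was at percentile 92.2 to 97.4 of all promoters, except for H2afv (64.7) and H3f3b (55.2). The shares over all promoters were not matched for GC content. The TATA box and the octamer were both in the promoter of H3f3b, 27 and 74 bases before the start, beside 4 CCAAT matches. The H3f3a window held neither the TATA box nor the octamer, with 1 CCAAT match on the opposite strand and 4 GC boxes, and its GC content was 77.2% against 54.0% for H3f3b. Both are printed because the genes encode one protein at unequal levels, with matches to the TATA box, the CCAAT box and the octamer on either strand in capitals (GC boxes stay in lower case). They lie at chr1:180813606-180813855 (H3f3a) and chr11:116024505-116024754 (H3f3b), both on the minus strand.
H3f3a: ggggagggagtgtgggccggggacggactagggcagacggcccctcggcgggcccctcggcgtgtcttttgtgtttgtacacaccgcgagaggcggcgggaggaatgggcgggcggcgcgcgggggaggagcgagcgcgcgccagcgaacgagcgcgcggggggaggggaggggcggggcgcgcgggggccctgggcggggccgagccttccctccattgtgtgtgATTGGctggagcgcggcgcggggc
H3f3b: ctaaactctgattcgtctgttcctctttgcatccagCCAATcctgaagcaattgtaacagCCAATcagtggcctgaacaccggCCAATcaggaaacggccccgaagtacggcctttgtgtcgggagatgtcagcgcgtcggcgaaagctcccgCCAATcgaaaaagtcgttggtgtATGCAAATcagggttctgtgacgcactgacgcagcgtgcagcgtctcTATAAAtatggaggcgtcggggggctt
A match is a description of letters, and no binding was measured.

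The 10 genes differed widely in level. Per length, on the scale of TMM-scaled FPKM, the mean over the 4 libraries was 388 for H3f3b, 258 for H2afx, 133 for H2afz, 84.4 for H2afv, 63.6 for H2afy, 50.9 for H3f3a, 38.9 for H1f0, 22.6 for Asf1a, 11.4 for Hira and 7.39 for H1fx. H3f3b was above 99.1% of the tested genes on this scale, H1fx above 29.2%. The median tested gene was at 14.4. Neighbours in this order had separate ranges over the 4 libraries, except H2afv and H2afy, whose ranges of 68.8 to 93.0 and 55.3 to 71.2 overlapped.

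**Figure D1:**
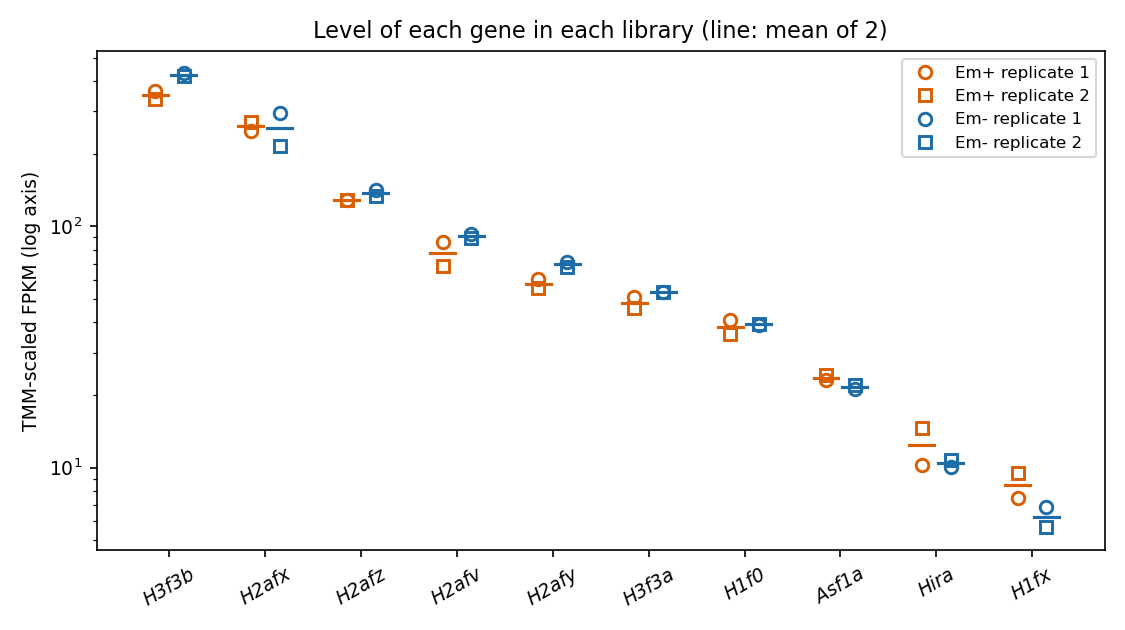
TMM-scaled FPKM (log axis) of the 10 genes in each library, ordered by mean level; symbols are single libraries and short lines the mean of 2. H3f3b is highest in all 4 libraries (339 to 430) and H1fx lowest (5.66 to 9.52), and the fractions lie close together for every gene.

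The question of the comparison is whether these genes differ between cells sorted as Zscan4-reporter positive and negative. None of the 10 was called by edgeR's quasi-likelihood test at an adjusted p under 0.05, nor by DESeq2 or limma. At an unadjusted p under 0.05 there were 3 of the 10: H2afy and H3f3b lower and H1fx higher in Em+. Over all tested genes 4.64% were called (3.82% higher and 0.822% lower in Em+), and 25.3% had an unadjusted p under 0.05. The median log2 fold change of the 10 was −0.06, beside 0.003 over all genes tested. The 2 Em+ libraries were both below both Em- libraries for 5 genes and both above for 2. Over all genes such separation occurred in 59.4%, 29.7% in each direction.

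Fits with 1 library left out gave other counts. A fit with 1 library of a fraction left out takes its spread from the other fraction's pair alone and assumes that the lone library varies as that pair does, which holds for every such adjusted p below. Without Em+ replicate 1, 7 of the 10 were called (3 higher and 4 lower), beside 41.4% of all genes (21.9% higher and 19.5% lower). Without Em+ replicate 2, which stood apart above, 2 of the 10 were called, H2afy and H3f3b, both lower, beside 16.3% of all genes (9.43% higher and 6.90% lower). On simulated counts, edgeR recovered 8% of changes of 0.25, 64% of 0.5 and 100% of 1 on the log2 scale, among 12050 genes. The real pairs were unequal in spread: chi-square divided by its degrees of freedom was 34.8 for Em+ and 4.28 for Em-. The simulated rates therefore cannot be taken as the power in these libraries. The 10 estimates were all under 0.5 in size, and the power to call them was not tested.

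**Figure D2:**
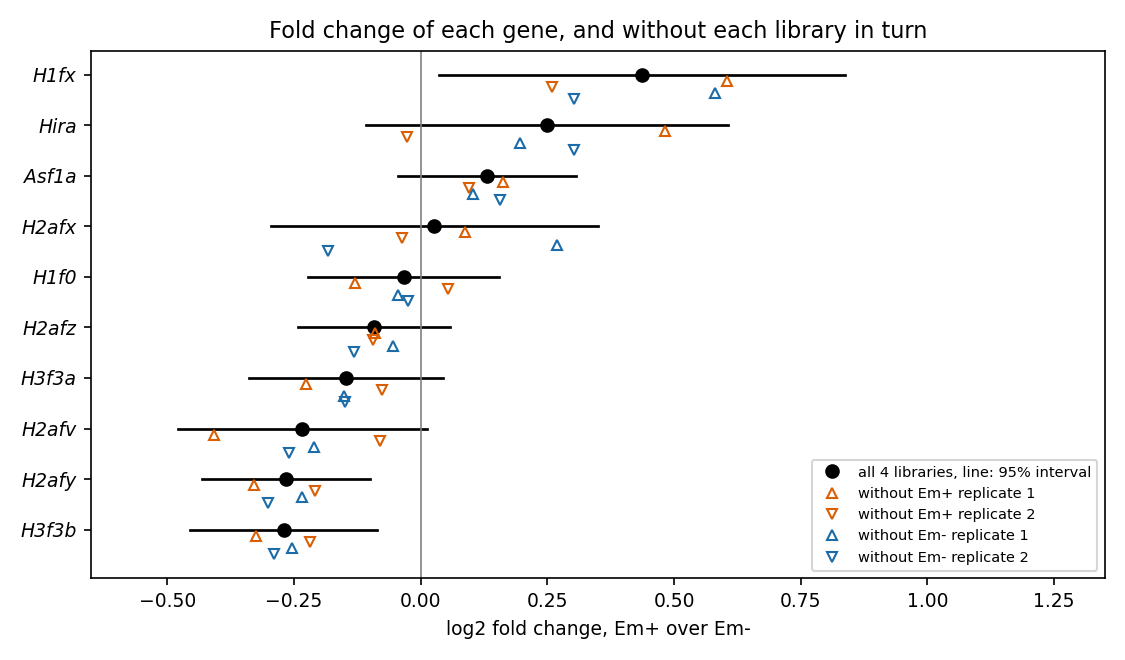
Log2 fold change (Em+ over Em-) of each gene in edgeR's fit of all 4 libraries, with its 95% interval, and in fits without each library in turn (triangles). H2afy and H3f3b stay below 0 and H1fx above 0 in all 5 fits, while Hira (−0.026 without Em+ replicate 2), H1f0 and H2afx cross 0.

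The H3.3 genes come first. H3f3b, at chr11:116021961-116024504, was the most abundant, with 365 (replicate 1) and 339 (replicate 2) scaled FPKM in Em+, beside 430 and 418 in Em-. Both Em+ libraries lay below both Em- libraries, and the difference between the means was larger than the gap inside either pair. The log2 fold change was −0.27 (SE 0.08, 95% interval −0.45 to −0.09, adjusted p = 0.0976), a level 17.1% lower in Em+. Leaving out Em+ replicate 2 gave −0.22 (adjusted p = 0.00261) and leaving out Em+ replicate 1 gave −0.32 (adjusted p = 8.29e-05). With either Em- library left out it was not called (adjusted p = 0.708 and 0.571).

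H3f3a, at chr1:180802568-180813603, had 50.9 and 45.8 scaled FPKM in Em+ and 53.6 and 53.5 in Em-. The Em+ libraries were again both lower, and the difference between the means was close to the gap between the Em+ libraries. Its log2 fold change was −0.15 (SE 0.08, interval −0.34 to 0.04, adjusted p = 0.300), and it was called only in the fit without Em+ replicate 1 (adjusted p = 0.00987). H3f3b supplied most of the H3.3 FPKM: 87.8 and 88.1% in Em+ and 88.9 and 88.7% in Em-. The difference of −0.86 percentage points was not tested. The exact two-sided permutation test of 2 against 2 libraries cannot go below p = 0.333.

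Of the H2A.Z genes, H2afz was the higher per length in the RefSeq table, and neither was called with all 4 libraries. In CPM H2afv was the higher by mean, with 127 against 123 in Em+ and 149 against 131 in Em-. In the Ensembl table, with transcript models of other lengths, H2afv had a mean FPKM of 114, against 55.3 for H2afz. H2afz (chr3:137864599-137866922) had 129 scaled FPKM in both Em+ libraries and 141 and 133 in Em-. Both Em+ libraries were lower, but the lower Em- library was within 5 FPKM of them, and the log2 fold change was −0.09 (SE 0.06, interval −0.24 to 0.06, adjusted p = 0.401). H2afv (chr11:6427226-6444443) had 86.4 and 68.8 in Em+ and 93.0 and 89.6 in Em-. Its Em+ replicate 2 was the lowest, 1.26-fold under replicate 1 in CPM, and the fold change followed that library: −0.23 with all 4 libraries (SE 0.10, adjusted p = 0.216), −0.08 when it was left out and −0.41 when replicate 1 was, where the gene was called (adjusted p = 0.000156). The share of H2afz in H2A.Z FPKM was 59.8 and 65.2% in Em+ and 60.3 and 59.8% in Em-. Its difference of 2.47 percentage points came from Em+ replicate 2 and was −0.20 without it.

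The counts of H2afz differed between tables, and copies of its sequence were counted apart in the Ensembl table. Of the 50-base windows of its longest GENCODE transcript, 69.6% also occurred elsewhere in annotated transcripts, chiefly in a retained-intron model of Tmcc1 and in Gm8203, a processed pseudogene. In the Ensembl table H2afz had 1175, 1133, 1335 and 1208 counts (Em+ 1 and 2, Em- 1 and 2), and Gm8203 had 13761, 10799, 14769 and 14302. Pseudogene copies thus took 90.5 to 92.2% of the joint count of H2afz and its copies. The RefSeq count of H2afz was 1952 to 2456, above its own Ensembl count and below that of Gm8203. The copies gave 33.2, 33.1, 31.7 and 32.9% of the joint count for H3f3a and 14.3, 12.9, 12.8 and 12.6% for H3f3b.

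**Figure D3:**
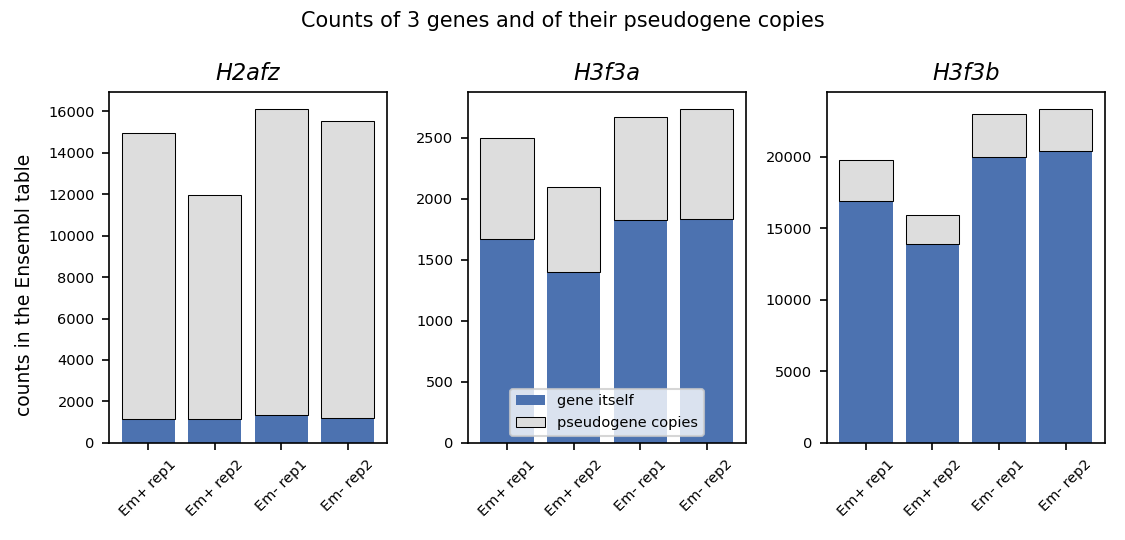
Counts in the Ensembl table of H2afz, H3f3a and H3f3b (blue) and of their pseudogene copies stacked above (grey), by library. For H2afz the copies hold 90.5 to 92.2% of each bar, for H3f3a 31.7 to 33.2% and for H3f3b 12.6 to 14.3%.

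Adding the copies changed levels and left the comparison between fractions without a call. With the copies added, the share of H2afz in H2A.Z FPKM became 87.8 and 89.2% in Em+ and 87.8 and 87.2% in Em-, against 31.0, 38.4, 33.5 and 29.2% in the Ensembl table without them. The log2 fold change of H2afz was −0.11 with the copies (adjusted p = 0.546) and −0.01 without (adjusted p = 0.975). Of all genes tested there, 4.01% were called (3.38% higher and 0.634% lower), and of the 10, 0. Gm8203 by itself was at −0.12 (adjusted p = 0.513) and Gm6485, the counted copy of H3f3b, at −0.15 (adjusted p = 0.422). By deposited FPKM H2afz took place 3 among the 10 in the RefSeq and known-gene tables and place 6 in the Ensembl and ENCODE tables. In these last 2 its counts were split over 7 transcript lines, against 1 in RefSeq. The mean FPKM of H2afv was 114 in the Ensembl table and 40.9 in RefSeq. Its main Ensembl model is 519 bases long, with 2196, 1503, 2338 and 2404 counts (Em+ 1 and 2, Em- 1 and 2). Its RefSeq model is 1636 bases long, with 2535, 1782, 2767 and 2781 counts. FPKM is scaled by transcript length, so the H2afv FPKM and the H2afz shares of these tables are not on one scale. The part of model length in the change of place of H2afz was not tested. H2afv shared no 50-base window with another gene.

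H2afx (chr9:44334715-44336073), a single-exon gene, was the second most abundant. It had 249 and 272 scaled FPKM in Em+ and 296 and 216 in Em-, so the Em- pair enclosed the Em+ pair, and Em- replicate 1 was 1.37-fold above Em- replicate 2 in CPM. The log2 fold change was 0.03 (SE 0.14, interval −0.30 to 0.35, adjusted p = 0.922). The estimate moved to 0.27 when Em- replicate 1 was left out and to −0.18 when replicate 2 was, with no call in either. H2afx shares 9.66% of its 50-base windows with other genes, chiefly replication-dependent H2A genes. The 12 tested H2A genes with a shared window were all higher in Em- replicate 1 than in Em- replicate 2, with summed CPM of 2248 and 1585, beside 1405 and 1366 in Em+. Their part in the H2afx counts was not tested.

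H2afy (chr13:56073622-56135550) had 60.2 and 55.3 scaled FPKM in Em+ and 71.2 and 67.8 in Em-. All of the Em+ values were below the Em- values, by more than the gap within either pair. The log2 fold change of −0.27 (SE 0.07, interval −0.43 to −0.10) had the smallest p of the 10 (unadjusted p = 0.00645, edgeR, adjusted p = 0.0792), a level 16.8% lower in Em+. It was called when Em+ replicate 1 was left out (−0.33, adjusted p = 0.000727) or replicate 2 (−0.21, adjusted p = 0.0182), and not without Em- replicate 1 or 2 (adjusted p = 0.617 and 0.356). The 4 RefSeq models overlap almost fully and 1 of them held 99.1% of the counts, so the macroH2A1 splice forms were not separated.

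The linker histones differed from each other in level and spread. H1f0 (chr15:79028212-79030500), a variant typical of cells leaving the cycle, had 40.8 and 36.0 scaled FPKM in Em+ and 39.1 and 39.5 in Em-. The groups overlapped, and the log2 fold change was −0.03 (SE 0.08, interval −0.22 to 0.16, adjusted p = 0.827). H1fx (chr6:87980421-87981482), encoding H1X, had the lowest level and the largest estimate, with 7.51 and 9.52 scaled FPKM in Em+ and 6.88 and 5.66 in Em-. These are 143, 160, 133 and 114 counts, and both Em+ libraries were above both Em- libraries. The log2 fold change was 0.44 (SE 0.17, interval 0.04 to 0.84, adjusted p = 0.172). It fell to 0.26 without Em+ replicate 2, and was called without Em+ replicate 1 (0.60, adjusted p = 0.0170).

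H1fx shares 14.0% of its windows with the antisense gene Gm5577, whose CPM were 5.46 and 7.26 in Em+ and 3.57 and 4.01 in Em- (log2 fold change 0.74, SE 0.19, adjusted p = 0.0747). In the known-gene and Ensembl tables H1fx held 76 and 80 counts in Em+ and 73 and 67 in Em-, fewer than in the RefSeq table, and its log2 fold change was 0.29 in each. The use of strand in counting is not given in the sources used here, so reads of these partners cannot be told apart.

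Of the chaperones, Hira (chr16:18876750-18970308) had 10.3 and 14.6 scaled FPKM in Em+ and 10.1 and 10.8 in Em-. Only Em+ replicate 2 was high, 1.42-fold over replicate 1 in CPM, and Em+ replicate 1 lay between the Em- libraries. The log2 fold change of 0.25 (SE 0.15, interval −0.11 to 0.61, adjusted p = 0.340) became −0.03 when replicate 2 of Em+ was left out (adjusted p = 0.820) and 0.48 when replicate 1 was (adjusted p = 0.000248). This gene shares 64.4% of its windows with the readthrough model Gm28539 at the same locus.

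Asf1a (chr10:53596961-53609215) had 23.1 and 24.1 scaled FPKM in Em+ and 21.2 and 21.9 in Em-. Its 4 values lay within 3 FPKM of each other, with both Em+ libraries on top, and the log2 fold change was 0.13 (SE 0.08, interval −0.05 to 0.31, adjusted p = 0.312). It was called when Em+ replicate 1 was left out (0.16, adjusted p = 0.0451) and not when replicate 2 was (0.10, adjusted p = 0.299). On the deposited FPKM without scaling, where the median of all tested genes was −0.14, it was −0.03. Asf1a lies inside Mcm9 (chr10:53537324-53630439), a gene for a DNA helicase on the opposite strand, and 65.8% of its windows occur in Mcm9 transcripts. Mcm9 rose in Em+, with 30.3 and 32.1 CPM against 8.08 and 7.54 in Em- (log2 fold change 2.00, SE 0.11, adjusted p = 3.61e-05). The part of Mcm9 reads in the Asf1a count was not tested.

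Around these genes, other histone genes, most of them variants, were read from a list of 18 symbols, of which 9 were tested. 2 of the 9 were called higher by edgeR, beside 3.82% of all genes tested. Both that rose are germ-cell variants, Hist1h2aa (TH2A) and Hist1h2ba (TH2B), which replace canonical H2A and H2B there. Hist1h2aa had 34.0 and 32.8 CPM in Em+ and 17.5 and 15.3 in Em- (log2 fold change 1.02, SE 0.10, adjusted p = 0.00109). Hist1h2ba had 30.6 and 25.3 CPM in Em+ and 12.9 and 11.4 in Em- (1.20, SE 0.13, adjusted p = 0.00203). Both were called in each fit without 1 library, at 0.93 to 1.12 and 1.06 to 1.33. The other 7 were not called by edgeR, among them the testis linker histone Hist1h1t (−0.20, adjusted p = 0.252). DESeq2 called 1 of the 7, Hist3h2a, lower (adjusted p = 0.0171). Hist3h2a and Hist3h2ba (−0.29 in edgeR, adjusted p = 0.167) are cluster genes for H2A and H2B rather than variants. They were not counted in the list of replication-dependent genes below, whose median was −0.36. In edgeR Hist3h2a had the lowest estimate, with 240 and 211 CPM against 301 and 276 (−0.36, adjusted p = 0.0581), and the centromeric H3 variant Cenpa was at −0.03 (adjusted p = 0.829).

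Hist1h2aa (chr13:23934462-23934913) and Hist1h2ba (chr13:23933725-23934156) are divergent neighbours with 305 bases between them. Their promoter windows overlap, and the one read from Hist1h2ba (chr13:23934157-23934406, minus strand) is shown because these genes, which both rose, start on either side of it. It holds 1 TATA box, 4 CCAAT box and 1 octamer match, in capitals on either strand, the same 3 kinds of motif as the H3f3b window.
Hist1h2ba: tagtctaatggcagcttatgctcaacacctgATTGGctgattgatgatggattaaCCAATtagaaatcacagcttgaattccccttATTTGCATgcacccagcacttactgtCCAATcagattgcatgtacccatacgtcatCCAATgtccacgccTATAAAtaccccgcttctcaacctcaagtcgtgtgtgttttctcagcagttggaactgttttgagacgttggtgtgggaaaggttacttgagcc
The relation between these letters and the fold changes was not tested.

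The replication-dependent histone genes were mostly lower in Em+ by estimate. The list leaves out Hist3h2a and Hist3h2ba, given above. Of 61 symbols 54 were tested, 0 were called higher and 1 was called lower: Hist1h2bg, an H2B gene, with 1049 and 907 CPM in Em+ and 1375 and 1326 in Em- (−0.47, SE 0.10, adjusted p = 0.0438). Its call was lost in the known-gene table (adjusted p = 0.0771) and with Em- replicate 1 or 2 left out (adjusted p = 0.372 and 0.230). At an unadjusted p under 0.05 in edgeR 41 of the 54 were lower and 0 higher, beside 10.7% lower over all genes tested. The median log2 fold change was −0.36, beside 0.003 over all genes tested. All 54 estimates were below 0 with all 4 libraries, 52 of 54 without Em- replicate 1. DESeq2 called 21 of the 54 lower, beside 151 of the 12050 genes tested. With limma on log2(FPKM + 1) 0 of the 54 were called lower, beside 67 of all genes. Estimates ranged from −0.61 (Hist1h2ae, adjusted p = 0.0734) to −0.18 (Hist1h2bj, adjusted p = 0.286). Copies in these clusters share sequence, so single members are uncertain.

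The variants were also set against their families. In RefSeq FPKM, H3f3a and H3f3b together made up 14.7 and 13.6% of all H3 gene FPKM in Em+ and 11.0 and 14.6% in Em-. These ranges overlapped, and in the Ensembl table the same shares were 29.6, 27.8, 23.4 and 29.4%. There FPKM was summed over 4 models of H3f3b and 7 of H3f3a, against 1 of each in RefSeq. The Ensembl shares are not on the scale of the RefSeq shares. H2afx took 6.37 and 7.19% of H2A FPKM in Em+ and 5.14 and 5.03% in Em-, with no overlap in this table or in the known-gene and Ensembl tables. H2afz and H2afv together took 5.50 and 5.23% of H2A FPKM in Em+ and 4.07 and 5.20% in Em-, and overlapped in the known-gene and Ensembl tables. H2afy took 1.54 and 1.46% in Em+ and 1.24 and 1.58% in Em-. By log2 fold change H2afx itself was at 0.03. The tested replication-dependent histone genes, the H2A genes of the denominator included, all had estimates below 0 with all 4 libraries. Their part in the shares was not tested. H1f0 and H1fx took 0.756 and 0.815% of H1 FPKM in Em+ and 0.593 and 0.619% in Em-. The shares were not tested.

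**Figure D4:**
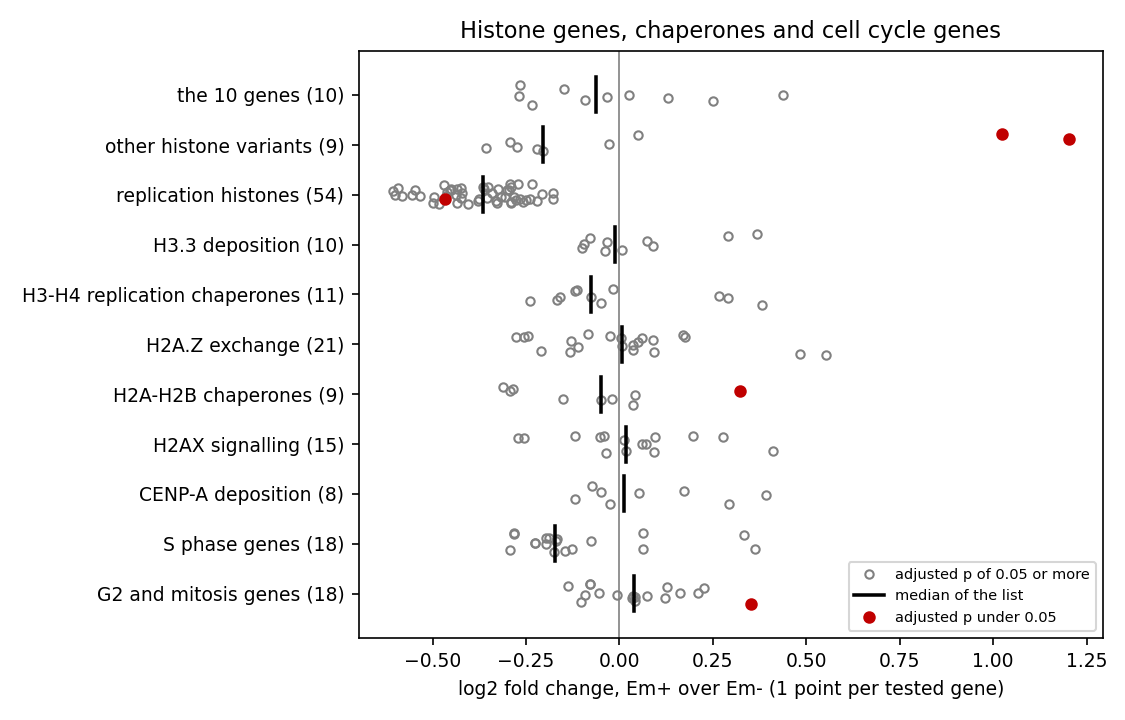
Log2 fold change (Em+ over Em-) of each tested gene in 11 lists, 1 point per gene, with the list's median as a bar and genes called by edgeR filled. The 10 genes lie between −0.27 and 0.44 without a call; Hist1h2aa and Hist1h2ba stand at 1.02 and 1.20, and the replication histones lie below 0.

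Genes for proteins that deposit or remove these variants were read from further lists. Of 10 tested genes for H3.3 deposition partners, 0 were called, 0 had an unadjusted p under 0.05 in edgeR, and DESeq2 called 0. Over all tested genes 25.3% had such an unadjusted p. The median of the H3.3 deposition list was −0.01. The HIRA partner Ubn2 had the highest estimate, with 64.7 and 96.6 CPM in Em+ and 61.5 and 63.2 in Em- (0.37, adjusted p = 0.217), and the H3-H4 chaperone Nasp the lowest, with 644 and 534 CPM against 627 and 636 (−0.10, adjusted p = 0.551). As with Hira, Ubn2 was high in Em+ replicate 2 alone. Atrx and Daxx, for the other H3.3 route, were at 0.09 (adjusted p = 0.453) and −0.03 (adjusted p = 0.848).

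Among 11 tested genes for H3-H4 chaperones of replication, 0 were called by edgeR or DESeq2, and 4 had an unadjusted p under 0.05 in edgeR. Over all tested genes 25.3% had such a p, which stands beside the count of each list here. The importin Ipo4 was at 0.38 (adjusted p = 0.101) and the CAF-1 subunit Chaf1b at −0.24 (adjusted p = 0.101). Of 21 tested genes for H2A.Z exchange 0 were called by edgeR or DESeq2, and 5 had an unadjusted p under 0.05. Their median was 0.008, with the remodeller Ep400 at 0.55 (41.1 and 68.2 CPM in Em+, 36.7 and 37.6 in Em-, adjusted p = 0.157) and the H2A.Z chaperone Vps72 at −0.28 (adjusted p = 0.111). Of 15 tested genes for H2A.X signalling 0 were called by edgeR or DESeq2, and 3 had an unadjusted p under 0.05. Prkdc, a kinase of H2A.X, was at 0.41 (adjusted p = 0.144) and the deubiquitinase Brcc3 at −0.27 (adjusted p = 0.236). Of 8 tested genes for CENP-A deposition 0 were called by edgeR or DESeq2, and 3 had an unadjusted p under 0.05, with the chaperone Hjurp at 0.39 (adjusted p = 0.0664) and Rbbp7 at −0.12 (adjusted p = 0.294).

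Of 9 tested genes listed as H2A-H2B chaperones 1 was called by edgeR, beside 4.64% of all genes tested. At an unadjusted p under 0.05 in edgeR 1 was higher and 3 were lower, beside 25.3% of all genes in either direction. Supt6, a histone chaperone of transcription elongation, rose from 193 and 192 CPM in Em- to 237 and 245 in Em+ (0.32, SE 0.06, adjusted p = 0.0306). The call was lost without Em- replicate 1 or 2 (adjusted p = 0.359 and 0.296), at estimates of 0.32 in both fits. The lowest of the list was Set, with 669 and 557 CPM in Em+ against 754 and 767 (−0.31, adjusted p = 0.117). DESeq2 called Supt6 higher (adjusted p = 0.0182) and Npm1, the nucleolar chaperone nucleophosmin, lower (−0.29, adjusted p = 0.0463, against 0.143 in edgeR; named after its value was seen).

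Since canonical histone mRNA follows S phase, cell cycle genes were read beside the histones. Of 18 tested S phase genes 0 were called by edgeR or DESeq2, and 8 had an unadjusted p under 0.05 in edgeR, 7 of them lower. Over all tested genes 25.3% had such a p, with 10.7% lower in Em+. The median of the S phase list was −0.17, with Ccne1 lowest (−0.29, adjusted p = 0.0893) and Ccne2 highest (0.36, adjusted p = 0.127). Of 18 tested genes of G2 and mitosis 1 was called by edgeR, beside 4.64% of all genes tested. This was Cenpe, a kinetochore motor, with 323 and 351 CPM in Em+ and 258 and 270 in Em- (0.35, SE 0.07, adjusted p = 0.0392). Its call was lost without Em- replicate 1 or 2 (adjusted p = 0.429 and 0.189) and in the ENCODE, Ensembl and known-gene tables (adjusted p = 0.0519, 0.0554 and 0.0548). The median of this list was 0.04, with Ccnb2 lowest (−0.14, adjusted p = 0.302). The part of cell cycle composition in the histone values was not tested.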

How the data were processed

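RNA-seq of 4 libraries was read from 4 tables that the authors deposited, on RefSeq, known-gene, ENCODE and Ensembl transcripts. Per the file headers each gives a count and an FPKM per transcript and library. The submitters' processing notes name Bowtie2 and build mm10. Counting program, strand setting and annotation release: not given in the sources used here. Groups came from the titles and the cell type field, and in all 4 samples the description gives the other fraction.

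In the RefSeq and Ensembl tables the deposited counts of Em- replicate 1 are all 0. Its counts were computed from the authors' FPKM, transcript length and library total, after adding 0.0005 because the values are cut to 3 decimals. This returned the exact count for at least 99.9% of the 24538 RefSeq transcripts in the other libraries. Counts and FPKM were summed per symbol. Table starts lie 1 base below those of GENCODE, so 1 was added.

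The main test was edgeR 4.0.16 (R 4.3.3; TMM, glmQLFit and glmQLFTest, two-sided, Benjamini-Hochberg over 12050 genes, threshold 0.05, no covariate); the common biological coefficient of variation was 0.0731. Scaled FPKM is the deposited FPKM multiplied by the reads behind it and divided by the TMM-scaled library size. DESeq2 1.42.0, limma 3.58.1 on log2(FPKM + 1), other tables, filters and scalings, and each library left out, were alternatives; 1 of them, the Ensembl table with pseudogene copies added, was chosen after seeing the data. Scripts were tested on simulated data. The genes and lists were chosen with earlier results of these data known. From each histone, chaperone and cell cycle list the text names every called gene (of more than 6, the 6 with the largest change). It also names those with the highest and lowest fold change. Further genes (Cenpa, Atrx, Daxx, Mcm9, Gm5577, Gm8203, Gm6485, Hist1h1t, Hist3h2ba, Npm1, Col1a1, Col1a2, Lama1, Sparc) were named after their values were seen. Promoters are from RefSeq (GRCm38.p6). Totals of 16468218 to 18953217 counts per library and 2 libraries per group both limit precision.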

Additional observations from a re-analysis of the deposited data

How the results depend on the processing

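Each fold change of the 10 genes was recomputed under 18 alternatives (17 for H1fx, which has no value at a mean FPKM of at least 5). Direction turned for H2afx (−0.12 on log2(FPKM + 0.1) and on log2(FPKM + 1), −0.034 with no filter, −0.18 to 0.27 with 1 library left out), H1f0 (0.0041 at FPKM 5, −0.13 to 0.053 with 1 library left out), Hira (−0.026 to 0.48 with 1 library left out) and Asf1a (−0.033 and −0.031 on the FPKM scales). It turned for Nasp (0.0056 in the ENCODE table, 0.011 in the Ensembl table with or without copies, −0.24 to 0.026 with 1 library left out), the fibroblast marker Pdgfrb (0.06 with all 4 libraries, −0.099 and −0.063 on the FPKM scales, −0.012 to 0.13 with 1 library left out) and the trophoblast marker Tfap2c (0.11 with all 4 libraries, −0.048 and −0.042 on the FPKM scales). Calls among the 10 ranged from 0 to 3 higher and 0 to 4 lower when 1 library was left out. Genes called higher overall numbered 460, and 215 and 226 with limma, 148 at FPKM 5 and 887 with no filter; leaving out 1 library gave 457 to 2642. Genes called lower numbered 99, and 151 with DESeq2, 54 with limma on log2(FPKM + 0.1), 23 at FPKM 5, 291 with no filter and 185 without scaling; leaving out 1 library gave 33 to 2350. Of the genes in the histone, chaperone and cell cycle lists 5 were called, and 27 with DESeq2, 3 in the known-gene table, 2 with limma at either pseudocount, 3 at FPKM 5, 25 with no filter, 23 without scaling and 10 with the top transcript; leaving out 1 library gave 3 to 111. The H3f3b share differed by −1.22 points in the known-gene table and −1.24 with copies added, and by −1.02 to −0.70 with 1 library left out; the H2afz share differed by −0.20 to 5.14. The cause of these changes was not tested. Same-numbered libraries share only a number (correlation of deviations 0.02): with the replicate block 1090 genes were called higher and 462 lower, 53 in the lists, and 1 of the 10, H2afy, lower (adjusted p = 0.0414, edgeR). Depth limits H1fx most, at 114 to 160 counts.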
